A study of Mus musculus with 20 samples.

Results

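Type IV collagen is the sheet-forming collagen of basement membranes, and its 6 chains are encoded by the genes Col4a1 to Col4a6. These genes were followed in 20 RNA-seq libraries of mouse retina. All 6 were found among the 35006 genes of the count files, and all 6 passed the filter on low counts in every comparison. The family was selected on one of these comparisons: an earlier analysis of the same libraries had placed Col4a3 among the genes with the smallest p in old against young untreated mice. That comparison is therefore given below as a description, with no test for the chains.

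Each type IV collagen molecule is a triple helix of 3 chains. Col4a1 and Col4a2 make the molecule found in nearly every basement membrane. Col4a3, Col4a4 and Col4a5 make the molecule of the kidney glomerulus, the cochlea and several basement membranes of the eye, and loss of any of these chains causes Alport syndrome. Col4a5 and Col4a6 make a further molecule of epithelial and smooth muscle basement membranes. In the retina, basement membranes lie at the inner limiting membrane, around blood vessels and in Bruch's membrane. The genes sit in pairs, head to head, and each pair is transcribed in opposite directions from a shared start region.

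The retinas came from wild-type C57BL/6J mice, and 1 retina of each mouse gave 1 library, so replicates are separate mice. The untreated groups held 4 young mice of 119 days and 4 old mice of 668 days. The treated groups held 6 young mice of 119 or 129 days, 1 of which has both ages in its labels, and 6 old mice, 2 each of 574, 581 and 668 days. Treated mice drank N-acetyl-L-cysteine ethyl ester (NACET), a cell-permeable cysteine precursor, at 50 mg/kg per day for 5 days, and controls did not. All 10 old mice were labelled male and 4 of the young mice, 2 in each young group, were labelled female. The batch label is the age in days, and no batch label was shared by young and old mice. Batch and age therefore cannot be told apart, either between old and young mice or within the old NACET group. The young controls all carried the 119-day batch label, and most treated young mice the 129-day one.

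Libraries held 17700500 to 31081959 gene counts. CPM below is counts per 1000000 after TMM scaling, a correction for differences in library composition. Rod photoreceptor genes were abundant throughout, with 60400 to 101000 CPM summed over 8 rod markers. Some libraries stood apart. Old NACET replicate 1, a mouse of 668 days, held 11600 CPM of 10 lens genes. The other 19 libraries held 0.862 to 23.5 CPM of them. Young NACET replicates 3, 4 and 5 and old control replicate 2 held 189 to 437 CPM of 8 corneal epithelium genes, against 4.76 to 54.3 CPM elsewhere. The library labelled old control replicate 4, a male by its label, held 59555 Xist counts and 1 count over 4 Y-linked genes, and it was the lowest of its group for all 6 chains.

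In the mm9 genome (annotation GENCODE vM1), Col4a4 and Col4a3 lie on chromosome 1, Col4a4 on the minus strand from 82447298 to 82583424 and Col4a3 on the plus strand from 82583496 to 82718634. Only 71 bases separate their annotated starts. Col4a1 (11198423 to 11312826, minus strand) and Col4a2 (11312805 to 11449287, plus strand) on chromosome 8 overlap at their first exons by 22 bases. Col4a6 (137599946 to 137908619, minus strand) and Col4a5 (137909928 to 138123778, plus strand) on chromosome X have 1308 bases between their starts. Of 22358 protein-coding genes, 7.6% had an oppositely directed protein-coding start within 1000 bases upstream or overlapping by up to 100 bases. Col4a6 and Col4a5, with 1308 bases between their starts, fall outside this window. The sequences between or at the starts of each pair are shown because the pair is transcribed from there. Capitals mark the GC box core, GGGCGG or its reverse complement, and no TATAAA or CCAAT is present in any of them.
Col4a4 to Col4a3, between the starts, chr1:82583425-82583495, plus strand: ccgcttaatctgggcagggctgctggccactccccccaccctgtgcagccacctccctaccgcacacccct
Col4a1 and Col4a2, shared first exon bases, chr8:11312805-11312826, plus strand: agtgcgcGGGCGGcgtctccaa
Col4a6, before its start, chrX:137908620-137908679, minus strand: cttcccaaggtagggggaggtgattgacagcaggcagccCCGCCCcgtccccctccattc
Col4a5, before its start, chrX:137909868-137909927, plus strand: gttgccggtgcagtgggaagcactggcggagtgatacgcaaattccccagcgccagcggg

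A window from 250 bases before to 50 bases after each annotated gene start was searched on both strands. GGGCGG was in the windows of Col4a1, Col4a2, Col4a5 and Col4a6 and in 43.5% of 22225 protein-coding windows. CCAAT was in those of Col4a1, Col4a2 and Col4a5 and in 38.0% of all windows. TATAAA was in 0 of the 6 and in 13.4% of all. The Col4a3 and Col4a4 windows, which overlap, held none of the 3 motifs. Their G and C content was 64.7% and 63.3%, against 74.0% for Col4a1, 73.7% for Col4a2, 52.7% for Col4a5, 48.3% for Col4a6 and a median of 55.3% over all windows.

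**Figure D1:**
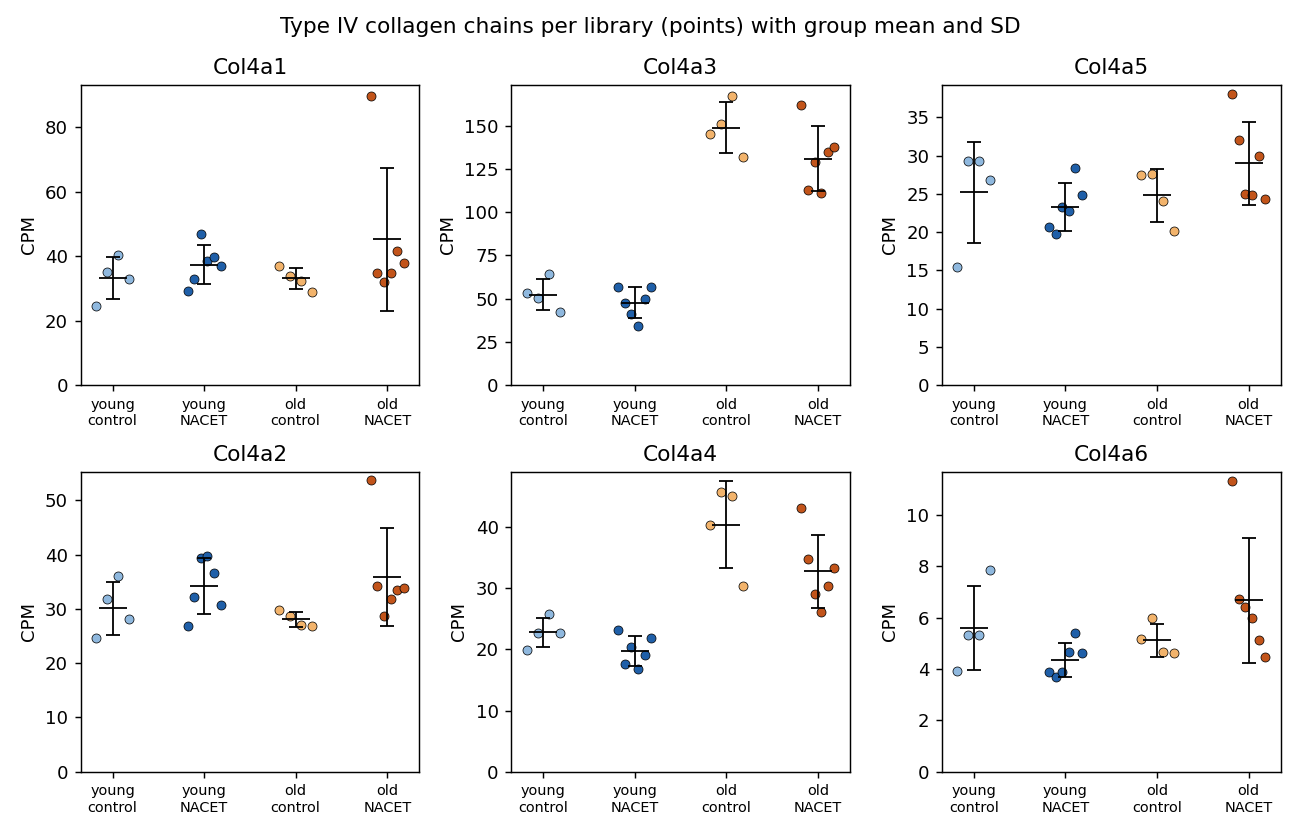
CPM of the 6 chains in the 20 libraries, 1 panel per chain with promoter partners above each other; points are libraries, and the line and bars are the group mean and SD. All old libraries lie above all young libraries for Col4a3 (111 to 167 against 33.9 to 64.0 CPM) and Col4a4, and a single old NACET library stands above the rest for Col4a1, Col4a2 and Col4a6. The control groups are those on which the family was selected.

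Col4a3 was the chain that differed most with age. In young controls it stood at 53.1, 50.1, 64.0 and 42.1 CPM (mean 52.3 ± 9.08, SD, n = 4), and in old controls at 145, 151, 167 and 132 CPM (149 ± 14.5, SD, n = 4). In the NACET-treated young mice it ranged from 33.9 through a median of 48.5 to 57.0 CPM, and in treated old mice from 111 through 132 to 162 CPM. No old library overlapped a young one, but the controls are the mice on which the family was selected. Each value rested on 810 to 4713 counts.

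Its partner Col4a4 differed in the same direction and by less. It stood at 19.9, 22.7, 25.8 and 22.7 CPM in young controls and at 40.4, 45.8, 45.1 and 30.4 CPM in old controls. In treated mice the young libraries ran from 16.8 through 19.8 to 23.1 CPM and the old ones from 26.2 through 31.8 to 43.2 CPM. Again every old library was above every young one, the controls of the selection included. In the treated mice alone, groups that did not overlap were seen for 3.39% of all genes tested.

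Age was tested in the NACET-treated mice, which are other animals than the controls on which the family was selected. Of the 6 chains, 2 were called at an edgeR adjusted p under 0.05, both higher in old mice, where 4.88% of 16276 genes tested were called and 2.24% were called higher in old mice. Col4a3 rose 2.77-fold, or by 1.47 on the log2 scale (SE 0.12, edgeR adjusted p 1.32e-06), and ranked 9 among all genes by p. Col4a4 rose by 0.73 (SE 0.11, edgeR adjusted p 0.000747), or 1.66-fold. These are also the 2 chains whose CPM did not overlap between the treated age groups, which held for 3.39% of all genes tested. In bulk retina, more cells that express a chain and more RNA per cell cannot be told apart.

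The other 4 chains did not pass. Col4a6 (0.61, SE 0.19, edgeR adjusted p 0.0696) and Col4a5 (0.32, SE 0.11, edgeR adjusted p 0.112) gave values above 0, and so did Col4a1 (0.28, SE 0.21) and Col4a2 (0.07, SE 0.13), at edgeR adjusted p of 0.484 and 0.799. Without old NACET replicate 1, Col4a1 and Col4a2 turned to -0.043 and -0.081, and Col4a6 gave 0.39. With the 574- and 581-day old mice alone, Col4a6 gave 0.33 and Col4a5 0.16, and with the 668-day mice alone 1.06 and 0.60. Old NACET replicate 1 is 1 of the 2 treated 668-day mice, so the 668-day values include this library. The median over the 6 chains, Col4a3 included, was 0.47, against -0.0013 over all genes tested. In old against young controls the same median was -0.016, against -0.0068 over all genes tested.

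Old against young controls, where 1.42% of 16484 genes were called, gave log2 differences of 1.51 (SE 0.11) for Col4a3 and 0.83 (SE 0.13) for Col4a4. The differences were -0.01 (SE 0.13) for Col4a1, -0.10 (SE 0.11) for Col4a2, -0.03 (SE 0.18) for Col4a5 and -0.13 (SE 0.19) for Col4a6. With labelled sex as a covariate, Col4a1, Col4a5 and Col4a6 turned to 0.15, 0.14 and 0.14, and in labelled males alone they also gave 0.15, 0.14 and 0.14. All labelled females were young, so both fits take the age difference from the labelled males, and their likeness is no second check. Both also count old control replicate 4 as male, despite its 59555 Xist counts and 1 Y-linked count. Leaving out single libraries turned Col4a1, Col4a5 and Col4a6 above 0 as well, up to 0.10, 0.062 and 0.072.

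The Col4a3 and Col4a4 calls in treated mice did not rest on the libraries with lens or corneal genes: with those 4 libraries left out, a fit added once the data had been seen, the log2 changes were 1.23 (edgeR adjusted p 1.57e-06) and 0.56 (edgeR adjusted p 0.00584). By age of the old treated mice, Col4a3 was 135 and 138 CPM at 574 days, 111 and 129 CPM at 581 days, and 113 and 162 CPM at 668 days. The 162 CPM belonged to old NACET replicate 1. Against the young treated mice, the change of Col4a3 was 1.54 for the 668-day mice alone and 1.43 for the younger 4 old mice, both called by edgeR, and so was Col4a4 in both.

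**Figure D2:**
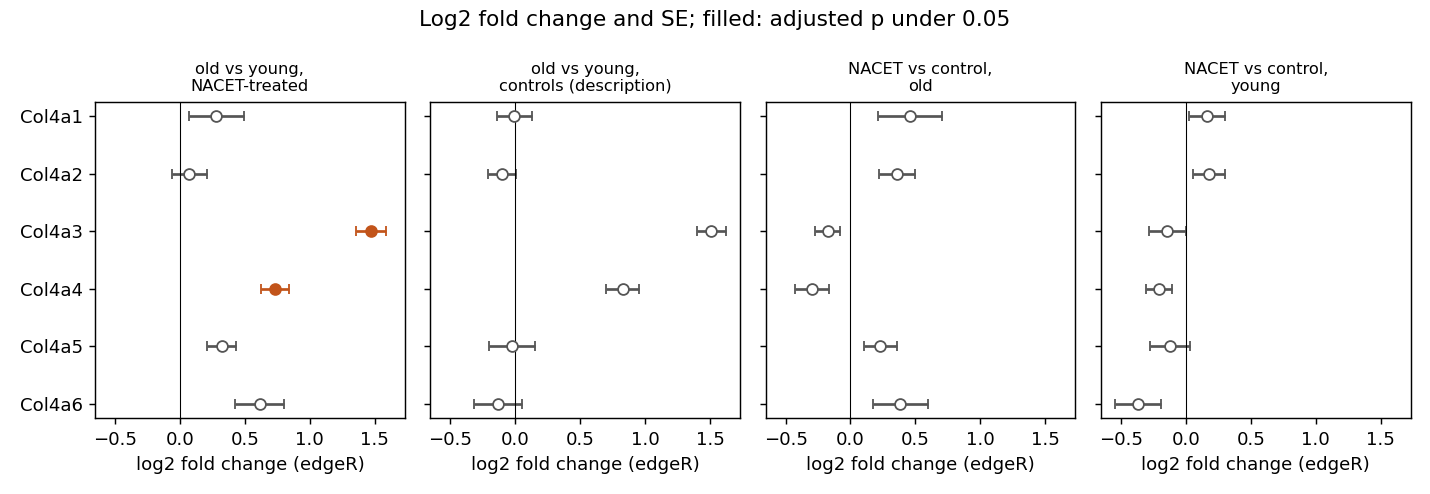
Log2 fold change of each chain with its SE, from edgeR, for age in treated mice, age in controls (a description, untested), NACET in old mice and NACET in young mice; filled points passed an adjusted p of 0.05. Col4a3 and Col4a4 in treated mice (1.47 and 0.73) are the filled points, and no chain is filled for NACET at either age. The control groups are those on which the family was selected.

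The balance within each promoter pair was compared by the ratio of its counts. The ratio of Col4a3 to Col4a4 counts was 2.66, 2.21, 2.48 and 1.85 in young controls and 3.58, 3.30, 3.70 and 4.34 in old controls. In treated mice it ran from 2.01 through a median of 2.51 to 2.69 in young and from 3.24 through 4.18 to 4.44 in old animals. All old libraries thus had more Col4a3 per Col4a4 count than all young libraries. The controls among them are those on which the family was selected. In treated mice the geometric mean ratio was 4.01 in old against 2.37 in young animals, a log2 difference of 0.76 (SE 0.11, two-sided exact permutation test, p 0.00216, the smallest that 6 against 6 can give, and 0.0195 after Benjamini-Hochberg adjustment over 9 ratio comparisons). In controls the same difference was 0.70 (SE 0.14), as a description.

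For the other pairs no difference passed the test, which does not show that the ratios were equal. Col4a1 over Col4a2 was 0.971 to 1.20 in treated young and 1.02 to 1.67 in treated old mice, a log2 difference of 0.13 (SE 0.11, exact permutation test, p 0.31, adjusted 0.609). The 1.67 belonged to old NACET replicate 1. Col4a5 over Col4a6 was 4.87 to 5.99 in treated young and 3.36 to 5.83 in treated old mice, a log2 difference of -0.25 (SE 0.13, exact permutation test, p 0.0887, adjusted 0.399). The 6 comparisons of the ratios of all pairs between NACET and control mice gave adjusted exact permutation p of 0.414 to 0.933. Their controls are the mice on which the family was selected.

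**Figure D3:**
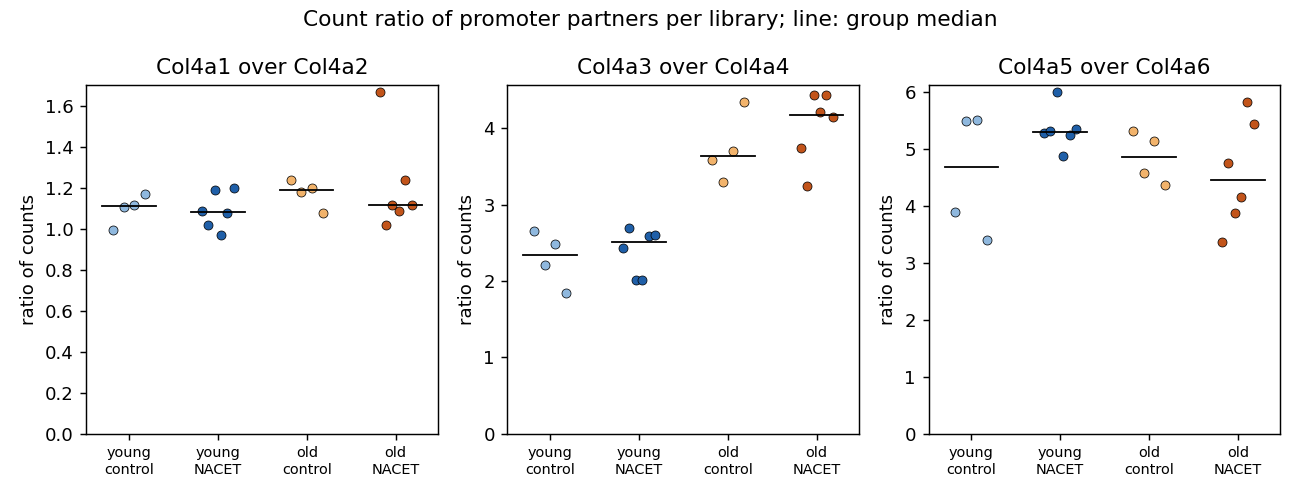
Ratio of the counts of promoter partners in each of the 20 libraries, 1 panel per pair and 1 point per library; the line is the group median. The Col4a3 over Col4a4 ratio is 1.85 to 2.69 in young and 3.24 to 4.44 in old libraries, while the age groups overlap for the other pairs.

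Levels of the 6 chains were compared per length of annotated exons. In young controls Col4a3 stood at 5.25 ± 0.911 CPM per kb (SD, n = 4), Col4a1 at 4.87 ± 0.964, Col4a2 at 4.55 ± 0.741, Col4a5 at 3.75 ± 0.986, Col4a4 at 2.74 ± 0.288 and Col4a6 at 0.701 ± 0.205. Neighbours in this order overlapped in range, except that Col4a6 was below all others. In old controls Col4a3, at 14.9 ± 1.45 CPM per kb, was above every other chain in all 4 libraries, with no overlap. Col4a4 (4.86 ± 0.855) and Col4a1 (4.85 ± 0.486) were then level, each the higher in 2 of the 4 libraries.

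By group mean, the order in treated young mice ran from Col4a1 through Col4a2, Col4a3, Col4a5 and Col4a4 to Col4a6, and in treated old mice from Col4a3 through Col4a1, Col4a2, Col4a5 and Col4a4 to Col4a6. Per kb of the longest annotated transcript, Col4a3 (5.56 CPM per kb) came before Col4a2 (5.31 CPM per kb) in treated young mice. Col4a3 was above Col4a1 in 6 of 6 treated old libraries, although their ranges overlapped. Col4a4 was below Col4a5 in 6 of 6 treated young and 5 of 6 treated old libraries.

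The share of Col4a3 in the summed level per length of the 6 chains was 24.2% ± 4.25 (SD, n = 4) in young and 45.0% ± 2.26 (SD, n = 4) in old controls. In treated mice it was 22.0% ± 4.50 (SD, n = 6) in young and 38.9% ± 4.03 (SD, n = 6) in old animals. The sum itself was 21.9 ± 3.37, 21.8 ± 1.54, 33.2 ± 2.98 and 34.3 ± 7.78 CPM per kb in the untreated young, treated young, untreated old and treated old libraries. Col4a6 contributed the least in every group, with 1.93% to 3.23% on average.

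**Figure D4:**
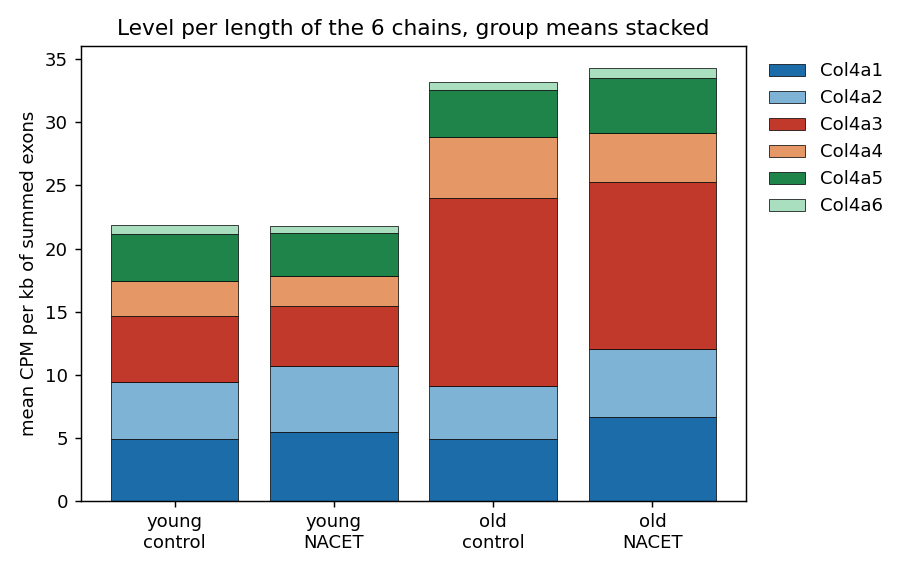
Mean level per length of the 6 chains in each group, in CPM per kb of summed annotated exons, stacked. The Col4a3 segment is 5.25 and 4.77 in the young groups and 14.9 and 13.2 in the old groups.

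NACET was then compared with no treatment within each age. The controls here, and in the difference between ages, are the mice on which the family was selected. Differences of Col4a3 and Col4a4 from them are therefore not independent of that selection. In old mice 0 of the 6 chains were called by edgeR, where 0.543% of 16562 genes were called. DESeq2 also called 0 of the 6, and 2 had an unadjusted edgeR p under 0.05, as did 2393 of the 16562 genes. Col4a3 was 149 ± 14.5 CPM in old controls and 131 ± 18.7 CPM in old NACET mice, a log2 difference of -0.18 (SE 0.10, edgeR adjusted p 0.411), with overlapping groups. Col4a4, one of the 2 chains with an unadjusted p under 0.05, gave -0.30 (SE 0.13, edgeR adjusted p 0.317), and Col4a2, the other, gave 0.36 (SE 0.14, edgeR adjusted p 0.243). The old controls were all of 668 days, as were 2 of the 6 treated mice, old NACET replicate 1 among them. In 668-day mice alone Col4a4 gave -0.036 and Col4a2 0.66. Without old NACET replicate 1, Col4a2 gave 0.20.

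In young mice 0 of the 6 chains and 0.00% of 16588 genes were called by edgeR, and 0 genes by DESeq2; 0 chains and 724 genes had an unadjusted edgeR p under 0.05. The log2 differences ran from -0.37 (SE 0.18) for Col4a6 to 0.18 (SE 0.13) for Col4a2. Col4a6 gave -0.16 without young control replicate 4 and -0.064 with the batch tag as a covariate. The difference between the NACET effects at the 2 ages was called for 0 of the 6 chains and 0.00% of 16993 genes by edgeR, where 1052 genes had an unadjusted p under 0.05, and for 0 of the 6 by DESeq2. It was furthest from 0 for Col4a6, at 0.75 (SE 0.30, edgeR adjusted p 0.672), the only chain with an unadjusted p under 0.05 there.

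Old NACET replicate 1 was high for several chains. This library held 89.8 CPM of Col4a1, against 32.0 to 41.6 CPM in the other 5 old NACET libraries. It held 53.8 CPM of Col4a2 against 28.6 to 34.2 CPM, and 11.3 CPM of Col4a6 against 4.45 to 6.72 CPM. Col4a3 (162 CPM), Col4a4 (43.2 CPM) and Col4a5 (38.1 CPM) were also at the top of their group there, at 1.29, 1.41 and 1.40 times the mean of the others. Of the 6 chains, 4 were above all other 19 libraries, which was the case for 5.65% of 14977 genes with a mean of at least 1 CPM.

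The same library stood apart for 2 of the 12 partners of type IV collagen in the basement membrane with a mean of at least 1 CPM, named after their values were seen. Nid1, which encodes the linker protein nidogen, was at 48.8 CPM against a mean of 1.13 ± 0.335 CPM (SD, n = 5). Hspg2, which encodes the proteoglycan perlecan, was at 34.8 CPM against 6.04 ± 0.707 CPM (SD, n = 5). Of the other lists, 7 of 18 genes of chain modification and cross-linking, 1 of 7 collagen receptors, 1 of 6 metalloproteases and inhibitors and 1 of 11 regulators were above all other 19 libraries there. The same held for 5.65% of all 14977 genes with a mean of at least 1 CPM, so lists with 1 such gene show little by themselves. The part of the lens genes in these values was not tested. Without this library the old NACET means were 36.2 ± 3.65 CPM for Col4a1, 32.4 ± 2.29 CPM for Col4a2 and 5.74 ± 0.942 CPM for Col4a6 (SD, n = 5).

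Correlations of log2 CPM between chains were taken within the 10 young and the 10 old libraries, over 30 pair and age combinations, with 100000 permutations each. Col4a1 and Col4a2 gave r = 0.92 in young mice (rho 0.87; permutation p 1.00e-04 and 0.0021, adjusted 0.003 and 0.0379), and 0.86 without the 2 libraries farthest from the median of Col4a1. In old mice they gave r = 0.96 (rho 0.84; permutation p 0.00043 and 0.00349, adjusted 0.00645 and 0.0379), 0.70 without the 2 farthest libraries and 0.78 without old NACET replicate 1.

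Col4a3 and Col4a4 gave r = 0.81 in old mice (rho 0.84; permutation p 0.00484 and 0.00379, adjusted 0.029 and 0.0379) and 0.66 without the 2 farthest libraries. In young mice they gave r = 0.69 (rho 0.66; permutation p 0.028 and 0.0435, adjusted 0.0912 and 0.186). It fell to 0.19 without the 2 farthest libraries, so the size of r depended on them. Col4a5 and Col4a6 gave r = 0.80 in old mice (rho 0.78; permutation p 0.00628 and 0.0104, adjusted 0.0314 and 0.0779). Without the 2 farthest libraries it was 0.45, so the size of this r too depended on them. In young mice their r was 0.68 (rho 0.73; permutation p 0.0304 and 0.0204, adjusted 0.0912 and 0.103) and 0.74 without the 2 farthest libraries.

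Among the 24 combinations of chains that are not partners, 2 passed on r, Col4a5 with Col4a1 (r = 0.81, rho 0.60; permutation p 0.00245 and 0.0734, adjusted 0.0205 and 0.275) and with Col4a2 (r = 0.83, rho 0.73; permutation p 0.00274 and 0.0206, adjusted 0.0205 and 0.103), both in old mice. These fell to 0.41 and 0.50 without the 2 farthest libraries. Within an age, Col4a3 and Col4a1 gave r of -0.27 in young and 0.39 in old mice (rho -0.16 and 0.21; permutation p of r 0.445 and 0.312, of rho 0.658 and 0.559, all adjusted values 0.551 or more), and the old value was -0.035 without old NACET replicate 1.

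**Figure D5:**
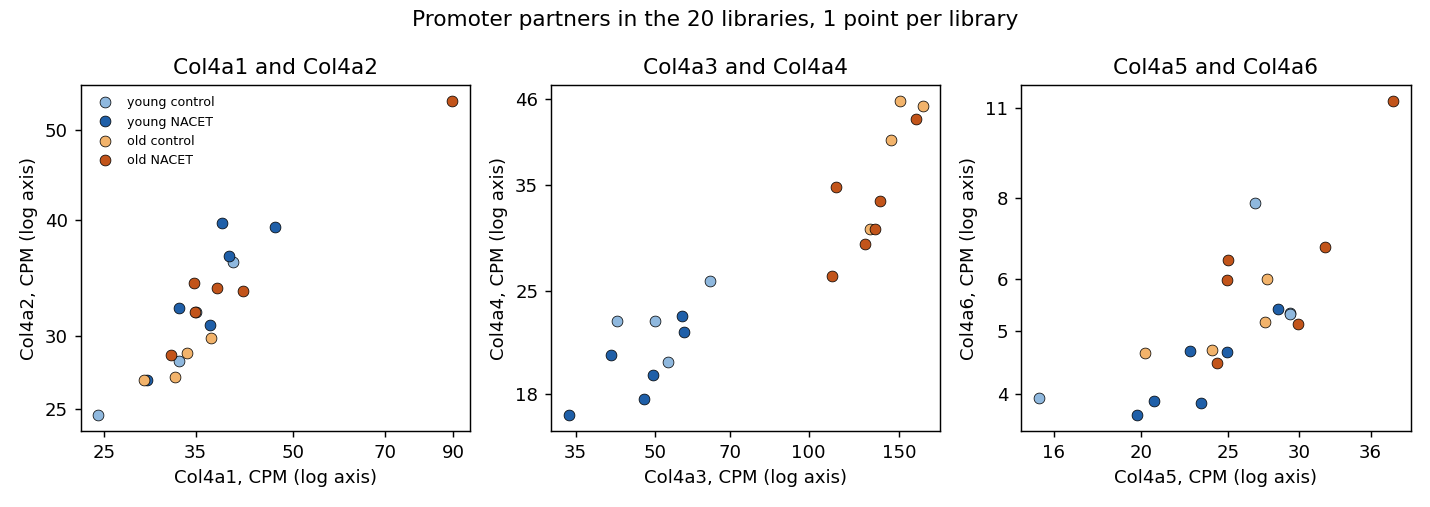
CPM of the promoter partners against each other in the 20 libraries, on log axes, 1 panel per pair and 1 point per library coloured by group. Young and old libraries form separate clusters for Col4a3 and Col4a4 (33.9 to 64.0 against 111 to 167 CPM of Col4a3), and 1 old NACET library lies at the far upper right for Col4a1 with Col4a2 and for Col4a5 with Col4a6.

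The genes most like each chain were named by the highest Pearson r of log2 CPM over the 20 libraries among 16987 genes, as a description. Differences in age group and depth enter every such r, and so does the lens-bearing library, which is 1 of the 20 points. For Col4a3 these were 9330159M07Rik (r = 0.97), Gm11843 (0.96) and Ly75 (0.96), the last an endocytic receptor gene of dendritic cells. Ly75 was at 6.47 ± 1.16 CPM in young controls and 27.9 ± 6.39 CPM in old controls (SD, n = 4). For Col4a4 they were 9430037G07Rik (0.94), Trim43c (0.94) and Gm11961 (0.93). All 6 of these genes had higher mean CPM in both old groups than in both young groups. This follows from picking them by r with chains that were higher in every old library, and is no separate result.

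For Col4a5 the closest was Pxdn (0.90), which encodes peroxidasin, the enzyme that cross-links type IV collagen, followed by Cdr1 (0.89) and Pabpn1 (0.87). Pxdn stayed the closest after group means were removed (0.89), a step that keeps old NACET replicate 1 in. That library held 43.2 CPM of Pxdn, above all other 19 libraries, and 38.1 CPM of Col4a5. For Col4a1 the closest were Mboat1 (0.90), Nid1 (0.89) and Dock5 (0.88), each with its highest value in the old NACET group, at 22.5, 48.8 and 34.4 CPM. The 48.8 CPM of Nid1 was in old NACET replicate 1, against a mean of 1.13 CPM in the other 5 libraries of that group. Mboat1 and Dock5 had means of 8.36 ± 6.91 and 10.9 ± 11.5 CPM in that group (SD, n = 6). Col4a2 was most like Fam189b (0.84), Lrrfip1 (0.83) and Dusp15 (0.81), and Col4a6 was most like Entpd1 (0.83), Tnfrsf1a (0.81) and Fgfr3 (0.80). Fgfr3 reached 22.2 CPM in the old NACET group, with a mean of 4.84 ± 8.50 CPM (SD, n = 6). For these likenesses, r without old NACET replicate 1 was not taken. For Col4a3 after group means were removed, the closest were Gm15975 (0.83), Gm16205 (0.78) and Taf4b (0.77).

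An antisense long non-coding gene, C430014B12Rik, lies over the 3′ end of Col4a3 (chromosome 1, 82688503 to 82721692, minus strand), and it was looked at after the values of Col4a3 were seen. It held 8 to 28 counts in young and 28 to 82 counts in old libraries, with 0.883 ± 0.272 CPM in young controls and 2.70 ± 0.324 CPM in old controls (SD, n = 4). Its annotated exons share 0 bases with those of Col4a3, but counting ignored strand, so reads outside annotated boundaries cannot be assigned by strand.

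Genes that build, hold, bind or cut type IV collagen were compared with age in the treated mice. Of 19 tested genes of chain modification and cross-linking, 1 rose and 1 fell, where 4.88% of all genes tested were called. Leprel2, a prolyl 3-hydroxylase, rose by 0.33 on the log2 scale (SE 0.06, edgeR adjusted p 0.00567), from 38.4 ± 3.69 to 48.3 ± 2.88 CPM (SD, n = 6). Plod1, a lysyl hydroxylase, gave -0.22 (SE 0.05, edgeR adjusted p 0.0213), from 22.4 ± 1.17 to 19.1 ± 0.726 CPM (SD, n = 6). In old against young controls neither gene was called. Leprel2 gave 0.073 (SE 0.14, edgeR adjusted p 0.85) and Plod1 gave -0.056 (SE 0.085, edgeR adjusted p 0.797). The median of the list in treated mice was 0.044.

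No gene of the other lists was called by edgeR, and 3438 of the 16276 genes tested had an unadjusted p under 0.05. The lists covered 12 basement membrane partners such as nidogens and perlecan (3 at an unadjusted p under 0.05, median log2 change -0.002), and 9 collagen receptors, that is integrins, discoidin domain receptors and the adhesion receptor Gpr126 (4 at an unadjusted p under 0.05, median 0.126). They also covered 7 matrix metalloproteases and their inhibitors (3 at an unadjusted p under 0.05, median -0.038) and 12 genes of TGF-β signalling and known collagen regulators (1 at an unadjusted p under 0.05, median 0.013). In neither NACET comparison nor in the difference between the ages was a gene of these 5 lists called by edgeR.

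Marker genes of cells that could carry the chains were set beside the age comparison in treated mice. The sum over 10 endothelial markers was 208 to 246 CPM in young and 230 to 265 CPM in old libraries, with 0 of 10 called by edgeR. The sum over 8 Müller glia markers was 3260 to 3790 and 3350 to 3810 CPM, with 0 of 8 called. Of 7 pericyte markers tested 1 was called, Cspg4, at -0.94 (SE 0.24, edgeR adjusted p 0.0347), while the list sum was 43.7 to 67.3 and 46.3 to 68.9 CPM. For all 3 lists the sums overlapped between the ages.

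The sum over 11 markers of the retinal pigment epithelium was 124 to 228 CPM in young and 51.3 to 145 CPM in old libraries, with 2 called lower, Ttr and Rdh5. Of 4 astrocyte markers 1 was called, Gfap, at 0.84 (SE 0.18, edgeR adjusted p 0.0104), and the sum was 35.2 to 56.1 and 52.9 to 73.8 CPM. Against 4.88% of all genes tested, corneal markers were called lower for 4 of 7, and 2 of 8 rod and 2 of 8 cone markers were called, with 0 of 4 connective tissue and 0 of 9 ganglion cell markers. No list had a marker at 0 counts throughout a group. The part of these cell types in the rise of Col4a3 and Col4a4 was not tested.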

How the data were processed

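The retina libraries were made with a TruSeq kit and read single-end. The authors mapped reads to mm9 with TopHat2 2.1.0 and counted them per gene with HTSeq 0.11.2, over exons and without strand. They deposited raw counts, 1 file per library. The annotation used for counting is not given in the sources used here. Lines for unassigned reads and 1 line with a blank gene name (0.000942% to 0.00218% of counts) were left out. CPM used TMM scaling over all 20 libraries. Comparisons used edgeR 4.0.16 (glmQLFit, glmQLFTest, filterByExpr, Benjamini-Hochberg over all genes tested, threshold 0.05, R 4.3.3), fitted on the groups compared. DESeq2 1.42.0 was an alternative, and the test was also checked on simulated data. SE is the log2 change over the square root of F. Ratios had 0.5 added to both counts. Lengths, positions and sequences came from mm9 and GENCODE vM1.

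The genes, lists, tests and named genes were chosen with earlier results of these data known. Named genes were the 6 chains, up to 4 called genes of each list and direction, and the 3 genes most like each chain. Groups, ages and replicate numbers came from the labels. Replicate numbers did not pair the mice: correlations of same-numbered deviations ran from -0.151 to 0.127. No 2 libraries of a group were duplicates (chi-square per degree of freedom 2.52 to 32.2 over 42 pairs).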

Additional observations from a re-analysis of the deposited data

Results flagged for a closer look

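In each group, the library farthest from the rest was set against the group's range (Dixon's criterion at 95%), for the 6 chains in 4 groups. Of 24 tests, 3 were past it, all in old NACET replicate 1: Col4a1 at 89.8 CPM, Col4a2 at 53.8 CPM and Col4a6 at 11.3 CPM. The gap to the next library was 0.834, 0.779 and 0.671 of the group's range. Chance passes about 1 in 20 such tests. This is the library with 11600 CPM of lens genes, and the part of those genes in the 3 values was not tested.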

How the results depend on the processing

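Col4a3 and Col4a4 stayed called for age in treated mice under every alternative run, with log2 changes of 1.23 to 1.56 and 0.56 to 0.99. The 2 called chains became 3 with DESeq2 and with the 668-day old mice alone (Col4a6), with sex as a covariate (Col4a5), and without old NACET replicate 6 (Col4a6). Of the 2 treated 668-day mice, 1 is old NACET replicate 1, the lens-bearing library. With the replicate block, Col4a3 and Col4a4 gave 1.48 and 0.72 for age in treated mice, and no call of a chain changed in any comparison. Changes near 0 turned sign, also for age in controls, as given with that comparison. For age in treated mice with the 581- and 574-day mice alone, Col4a1 gave -0.030 and Col4a2 -0.10. For NACET in young mice, Col4a5 gave 0.16 with the batch tag as a covariate, and without the lens and corneal libraries Col4a1, Col4a2 and Col4a3 gave -0.013, -0.016 and 0.036. For the difference between ages, Col4a3 gave 0.023 in labelled males and 0.015 with the replicate block. With 1 library left out, age in treated mice spanned -0.043 to 0.36 for Col4a1 and -0.081 to 0.13 for Col4a2. The difference between ages then spanned -0.036 to 0.41 for Col4a1 and -0.15 to 0.053 for Col4a3. The log2 ratio for NACET spanned -0.051 to 0.027 (Col4a1 to Col4a2) and -0.042 to 0.13 (Col4a3 to Col4a4) in young mice, and -0.070 to 0.072 (Col4a1 to Col4a2) in old mice. The correlation of Col4a5 and Col4a6 in old mice was 0.56 without the lens library. The cause of these shifts was not tested. Whole-table calls moved more. Age in treated mice gave 795 called genes, but 1321 with DESeq2, 422 with the replicate block, 151 or 261 with part of the old ages, and 478 to 922 with 1 library left out. NACET in old mice gave 90, but 375 with DESeq2, 150 with no filter, 17 with the replicate block, 1 with all 4 groups in one fit, 25 without the lens and corneal libraries, 0 in 668-day mice and 8 to 110 with 1 library left out. NACET in young mice gave 0, with 1 in labelled males, 2 with the replicate block and 0 to 8 with 1 library left out. The difference between ages gave 0, with 88 by DESeq2, 49 with no filter and 0 to 77 with 1 library left out. Age in controls gave 234, with 721 by DESeq2, 461 with all 4 groups in one fit, 79 with sex as a covariate, 69 in labelled males, 118 without the lens and corneal libraries and 113 to 414 with 1 library left out. Sex as a covariate was not run in old mice, where all labels are male. With 4 to 6 mice a group, small differences of the less abundant Col4a6 (63 to 247 counts) may go undetected.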
